A study of Homo sapiens with 4 samples.

Results

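The unfolded protein response and the ATF4 response were examined at the mRNA level in LX-2 cells through 38 genes, taken by symbol as known endoplasmic reticulum (ER) chaperones, ER stress sensors and ATF4 targets. All 38 were found in the table of 63677 genes and all 38 were among the 18252 genes that passed the filter on low counts. They were kept apart as an ER arm of 18 chaperone, disulfide isomerase and ER-associated degradation genes, a set of 4 made of the 3 sensors and *XBP1*, and an ATF4 arm of 16 genes. LX-2 is an established human hepatic stellate cell line. The cells were transfected with an miR-6133-5p mimic or with the negative control mimic miControl, each at 20 nM, and received rhTGF-β1 at 5 ng/mL 24 h later. RNA was taken after another 24 h, with 2 libraries per group. Every library therefore carried a transfected mimic and rhTGF-β1, and no library without rhTGF-β1 was compared. Nothing in the labels says that the 2 libraries of a group came from separate cultures, so the p-values measure only the spread between these libraries.

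Secretory proteins fold in the ER with the help of chaperones such as BiP (*HSPA5*), and unfolded protein in the ER is sensed by 3 membrane proteins, IRE1α (*ERN1*), PERK (*EIF2AK3*) and ATF6 (*ATF6*). Active IRE1α splices the *XBP1* mRNA, active ATF6 is cut in the Golgi, and both routes raise chaperone and degradation genes, whereas PERK phosphorylates eIF2α, which lowers general translation and raises translation of *ATF4*. ATF4 in turn raises genes of amino acid transport, serine and one-carbon metabolism, and feedback. Activated stellate cells secrete large amounts of collagen, and the folding of procollagen relies on these ER proteins.

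Promoter sequences were read for the members first, since the 2 arms are known by different DNA elements, and they are shown so that the values below can be set against them. RefSeq windows of 300 bases on GRCh38.p14, from 250 bases before to 50 after the annotated start, were at hand for 35 of the 38 members, in 49 windows. The ER stress response element (ERSE) was searched on both strands as CCAAT and CCACG with 9 bases between them. It stood in 27 of 35116 windows of all genes (0.0769%) and in 9 of the 49 member windows (18.4%). The members were taken as known ER stress genes, so these shares only describe that choice. The 7 members that held it were *CALR*, *CANX*, *CRELD2*, *HSP90B1*, *HSPA5*, *PDIA6* and *XBP1*, that is 6 of 17 ER arm genes with a window, 1 of the 4 in the sensor set and 0 of 14 in the ATF4 arm. Below, 5 of these matches are printed 5′ to 3′ on the strand that reads CCAAT first, with 10 flanking bases on each side and both parts of the ERSE in capitals, as the members whose values moved or that anchor the arm.
HSPA5: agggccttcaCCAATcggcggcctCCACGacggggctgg
CALR: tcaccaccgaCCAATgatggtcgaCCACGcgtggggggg
CANX: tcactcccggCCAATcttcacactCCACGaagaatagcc
CRELD2: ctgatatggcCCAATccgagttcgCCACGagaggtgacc
XBP1: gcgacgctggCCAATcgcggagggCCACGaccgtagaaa

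The whole *XBP1* window at chr22:28800520-28800819 on the minus strand, the window of its 2 that held the element, is given because *XBP1* was both a holder of the element and a member that fell. The element with its 9 inner bases is in capitals, 52 to 34 bases before the start.
XBP1 promoter: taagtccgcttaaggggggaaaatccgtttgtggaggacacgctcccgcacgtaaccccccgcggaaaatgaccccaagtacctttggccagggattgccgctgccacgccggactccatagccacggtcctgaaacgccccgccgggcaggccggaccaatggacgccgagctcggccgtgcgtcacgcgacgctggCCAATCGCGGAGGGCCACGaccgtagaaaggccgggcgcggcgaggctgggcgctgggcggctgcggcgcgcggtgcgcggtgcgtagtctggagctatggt
The second element, ERSE-II, was searched as ATTGG and CCACG with 1 base between them, and stood in 19 of all windows (0.0541%). Its holders were *HERPUD1*, *HYOU1* and *SDF2L1*, all in the ER arm. The *HYOU1* window at chr11:119057156-119057455 on the minus strand held it at 2 places, 185 to 175 and 79 to 69 bases before the start. Both lie on the opposite strand, so that the capitals below show them as their reverse complement.
HYOU1 promoter: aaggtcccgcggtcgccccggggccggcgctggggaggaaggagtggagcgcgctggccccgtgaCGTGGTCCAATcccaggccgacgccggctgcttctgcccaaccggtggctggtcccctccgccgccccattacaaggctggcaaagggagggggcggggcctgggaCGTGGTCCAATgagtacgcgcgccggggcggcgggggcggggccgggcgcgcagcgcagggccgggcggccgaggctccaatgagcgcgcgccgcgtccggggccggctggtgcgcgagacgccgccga
The upstream of these also overlapped a match to the unfolded protein response element TGACGTGG, which 256 of all windows held (0.729%) and no other member window.

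The ATF4 arm is known for the C/EBP-ATF response element (CARE), searched on both strands as TGATG and AA with 1 base of any kind between them. It is a short element and stood in 1270 of all windows (3.62%) and in 4 of the 49 member windows (8.16%). Matches were found in *ASNS*, *CHAC1* and *SLC3A2*, 3 of 14 ATF4 arm genes with a window, and in *HERPUD1* of the ER arm. They are printed with their flanks and with the fixed letters in capitals. The *SLC3A2* match lies after the start, where the end of the window cut its first flank.
ASNS: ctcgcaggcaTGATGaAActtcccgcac
CHAC1: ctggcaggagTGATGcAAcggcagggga
HERPUD1: gggcacgggcTGATGcAAcccgccgcgt
SLC3A2: ggagcTGATGtAAggagtcctgc
A match is a run of letters and not a measured binding site.

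The miControl libraries held 51862006 and 57903388 counts, and the miR-6133-5p libraries 61747010 and 93811213. Levels are given as CPM (counts scaled to the size of the library, with library totals adjusted by TMM), and 1 count was worth at most 0.0203 CPM. Changes are log2 fold changes of miR-6133-5p over miControl from edgeR's quasi-likelihood test, with Benjamini–Hochberg adjustment over all 18252 genes. A gene passed at an adjusted p-value under 0.01 and was called when its log2 fold change also lay beyond 0.8. The smallest p-value that exact permutation of 4 libraries allows for a gene is 0.333. The median gene moved by 0.03 on the log2 scale under TMM and by 0.19 when library totals alone were used, and the share of passing genes that were lower was 57.7% under TMM and 33.4% under library totals. Stellate markers were present (*COL1A1*, *SPARC* and *VIM* among them), although desmin (*DES*, 0 to 2 counts per library) and *LRAT* (0 to 7 counts) were at or near 0. The summed level of the 14 stellate and mesenchymal markers was 8684 to 9279 CPM in miControl and 5652 to 6245 CPM in miR-6133-5p, with 6 of the 11 tested lower, and its part in the results below was not tested. Summed hepatocyte, endothelial and leukocyte markers stayed between 1.23 and 6.21 CPM in every library, with *TTR*, *HNF4A*, *LYVE1*, *CD163* and *TYROBP* at 0 counts. Of 6 cholangiocyte markers, *EPCAM* had 2 to 4 counts and *CFTR* 0, *KRT7* was higher (log2 fold change 0.76, adjusted p = 0.00317, edgeR), and the sum of the list, mostly *SOX9*, was 83.9 and 85.4 CPM in miControl and 39.9 and 36.8 CPM in miR-6133-5p.

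Of the 38 members, 13 were lower with miR-6133-5p and 4 were higher at an adjusted p-value under 0.01. The 13 lower genes were 34.2% of the members, beside 10.9% of all genes tested, and the 4 higher were 10.5%, beside 7.96%. The members were chosen with earlier results of these data known, and the genes tested were not matched to them in level. These shares are therefore a description. With the log2 fold change limit, 4 members were called lower (10.5%, beside 5.54% of all genes) and 0 higher (beside 2.9% of all genes), the highest log2 fold change being 0.69. DESeq2 called 5 lower and 0 higher. In edgeR the members called lower were *ERN1*, *XBP1*, *HYOU1* and *SLC7A5*. The libraries of the groups did not overlap for 21 members lower and 8 higher (55.3% and 21.1%), beside 31.3% lower and 33.2% higher of all genes tested. Members that passed lay on both sides of 0 in the ER and ATF4 arms, and the members are therefore described by role. The chart of log2 fold changes by arm shows the order of the members.

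**Figure D1:**
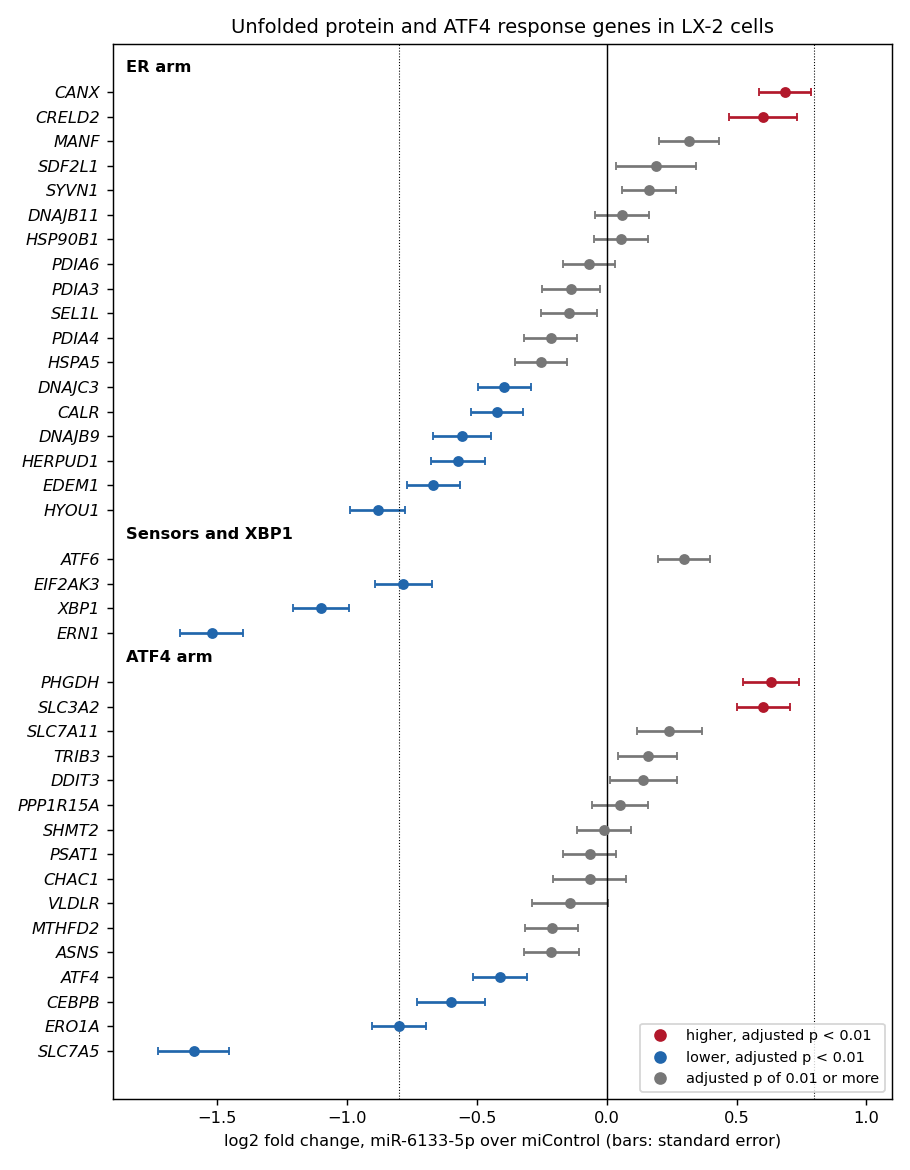
Log2 fold change of each of the 38 members (points, with the standard error as bars), miR-6133-5p over miControl, sorted within the ER arm, the sensors with *XBP1*, and the ATF4 arm; colour marks the adjusted p-value and the dotted lines mark log2 fold changes of 0.8 in either direction. The members run from −1.59 for *SLC7A5* to 0.69 for *CANX*, and 3 of the 4 genes in the middle group lie at −0.78 or below.

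Whether a member passed did not rest equally on all libraries. The same held over all genes tested: fewer passed without a miControl library and more without a miR-6133-5p library. The losses and gains below are therefore not particular to the members. Without the first miControl library 6 of the 17 passing members passed (*ERN1*, *XBP1*, *EIF2AK3*, *HYOU1*, *SLC7A5* and *ERO1A*), and without the second 7, with *EDEM1* added (adjusted p = 0.0113 without the first), where the lone control library was assumed to vary like the other group. *CANX*, *CALR*, *CRELD2*, *DNAJB9*, *DNAJC3*, *HERPUD1*, *ATF4*, *CEBPB*, *PHGDH* and *SLC3A2* did not pass in either of these fits, with highest adjusted p-values from 0.021 for *HERPUD1* to 0.137 for *ATF4* in edgeR. Each of them kept its direction there. Without a miR-6133-5p library 20 and 19 members passed, with all 17 among them. Under library totals *CALR*, *DNAJB9*, *DNAJC3*, *ATF4* and *CEBPB* did not pass. The same 17 members passed with DESeq2.

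Of the 3 sensors, 2 fell and the other did not pass. With *XBP1*, 3 of the 4 genes of the set fell (75.0%, beside 10.9% of all genes tested). *ERN1* (ENSG00000178607, GRCh37 chr17:62116440-62208179, minus strand), which encodes the kinase and RNase IRE1α, had 64.9 and 67.5 CPM in the miControl libraries and 20.5 and 25.6 CPM in the miR-6133-5p libraries. Both miR-6133-5p libraries were far below both control libraries, and the gap between groups was many times the gap within them. *ERN1* fell by 65.1% (log2 fold change −1.52, SE 0.122, adjusted p = 1.17e-06 in edgeR's quasi-likelihood test). In bulk RNA a lower level per cell and fewer cells that carry the transcript cannot be told apart, here and below.

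*XBP1* (ENSG00000100219, chr22:29190543-29196585, minus strand), the transcription factor whose mRNA IRE1α splices, had 131 and 123 CPM with miControl and 62.7 and 55.6 CPM with miR-6133-5p. The groups were well separated, and the level fell by 53.3% (log2 fold change −1.10, SE 0.108, adjusted p = 6.82e-06, edgeR). These are gene counts and do not tell the spliced from the unspliced form.

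*EIF2AK3* (ENSG00000172071, chr2:88856259-88991036, minus strand), encoding the eIF2α kinase PERK, had 31.9 and 30.1 CPM in miControl against 17.96 and 18.1 CPM in miR-6133-5p. Neither group overlapped the other, and the fall was 41.9% (log2 fold change −0.78, SE 0.109, adjusted p = 0.000135, edgeR), just short of the limit of 0.8. *ATF6* (ENSG00000118217, chr1:161736088-161947364, plus strand), the third sensor and itself a transcription factor once cut, was above the controls without passing. Its values were 62.8 and 62.7 CPM with miControl and 75.2 and 78.9 CPM with miR-6133-5p, and neither miR-6133-5p library overlapped the controls (log2 fold change 0.30, SE 0.0992, adjusted p = 0.0373, edgeR). Under library totals alone *ATF6* had a log2 fold change of 0.46 and passed.

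The ratio of 2 genes within a library does not depend on how libraries are scaled. Exon length here joins the exons of all annotated transcripts of a gene. The size of a ratio per kilobase therefore depends on the annotation, while its change between groups does not. *ATF6* over *ERN1*, each per kilobase of exon, was 1.30 and 1.25 in the miControl libraries and 4.94 and 4.13 in the miR-6133-5p libraries, 3.56-fold higher on average. This pair, and the other pairs given as ratios, were chosen after their values were seen, so the ratios are a description. The 4 genes had a median log2 fold change of −0.94, beside 0.03 for all genes, and a summed level of 290.5 and 283 CPM in miControl against 176 and 178 CPM in miR-6133-5p. *ERN1*, *XBP1* and *EIF2AK3* passed in each fit that left out 1 library, with highest adjusted p-values of 0.000413, 0.00161 and 0.0098 in edgeR.

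**Figure D2:**
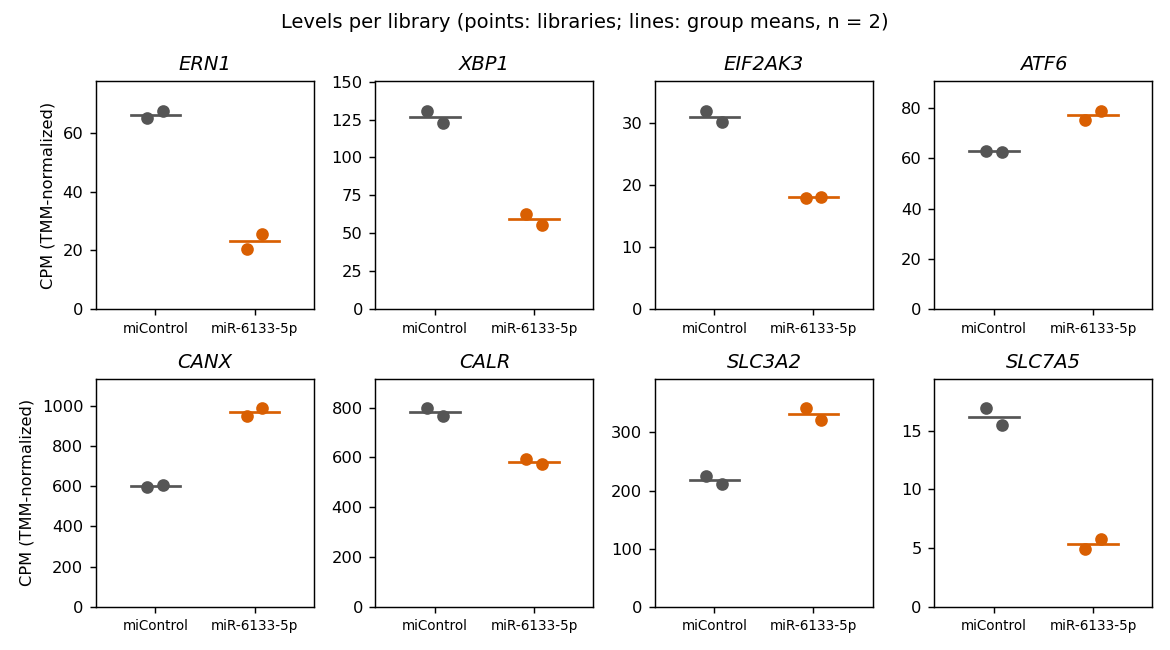
TMM-scaled CPM of 8 members in each library (points) with the group mean as a line (n = 2 per group); every axis starts at 0. *ERN1*, *XBP1* and *EIF2AK3* are lower with miR-6133-5p while *ATF6* is not, and *CANX* and *SLC3A2* are higher while their partners *CALR* and *SLC7A5* are lower.

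The ER chaperones showed no shared direction: of the 11, 4 fell, 2 rose and 5 did not pass, with a median log2 fold change of 0.06. Of all genes tested, 10.9% fell and 7.96% rose. *HSPA5* (ENSG00000044574, chr9:127997132-128003661, minus strand) encodes BiP, the main Hsp70 of the ER and the usual readout of ER stress. It had 1213 and 1218 CPM in the miControl libraries and 1061 and 979 CPM in the miR-6133-5p libraries. Both miR-6133-5p libraries lay below the controls, by an amount that did not pass the test (log2 fold change −0.25, SE 0.101, adjusted p = 0.0745, edgeR). In the fits that each left out a library, the log2 fold change of *HSPA5* ran from −0.33 to −0.21. Whether it passed there depended on which group lost a library, so these fits do not settle the fall. *HSP90B1*, the Hsp90 of the ER (GRP94), had 783 and 871 CPM against 892 and 826 CPM, so that its groups overlapped.

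*HYOU1* (ENSG00000149428, chr11:118914899-118927938, minus strand), a large Hsp70-like chaperone and exchange factor for BiP, was the ER arm gene with the largest fall. It had 167 and 156 CPM with miControl and 83.5 and 91.8 CPM with miR-6133-5p, a decrease of 45.7% with no overlap (log2 fold change −0.88, SE 0.106, adjusted p = 3.75e-05, edgeR). It passed in each fit that left out 1 library, with a highest adjusted p of 0.00556 in edgeR, but under library totals its log2 fold change was −0.72, within the limit of 0.8, so that it was not called there. *HYOU1* is the gene whose window held ERSE-II at 2 places. *DNAJB9* (ERdj4), a BiP cochaperone, had 49.9 and 51.6 CPM against 37.5 and 31.5 CPM and fell by 32.0% (log2 fold change −0.56, SE 0.113, adjusted p = 0.00223, edgeR). *DNAJC3* (p58IPK), another BiP cochaperone and an inhibitor of PERK, had 106 and 112 CPM against 84.1 and 81.2 CPM. It passed narrowly (log2 fold change −0.39, SE 0.101, adjusted p = 0.00998, edgeR).

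The lectin chaperones calnexin and calreticulin, which bind the same sugar on newly made glycoproteins in the ER membrane and the ER lumen, moved in opposite directions. *CANX* (calnexin, ENSG00000127022, chr5:179105629-179158642, plus strand) had 594 and 608 CPM in miControl and 949 and 986 CPM in miR-6133-5p. It rose by 60.9%, the largest rise among the members (log2 fold change 0.69, SE 0.0999, adjusted p = 0.000192, edgeR). *CALR* (calreticulin, ENSG00000179218, chr19:13049392-13055303, plus strand) had 796 and 766 CPM in miControl and 595 and 571 CPM in miR-6133-5p. It fell by 25.3% (log2 fold change −0.42, SE 0.1003, adjusted p = 0.00631, edgeR), and the fall did not pass under library totals, where its log2 fold change was −0.26. Per kilobase of exon and within a library, *CANX* was 0.152 and 0.162 of *CALR* in miControl and 0.325 and 0.351 in miR-6133-5p, 2.16-fold higher. Both promoter windows held an ERSE, as printed above.

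*CRELD2*, a secreted ER protein with disulfide isomerase activity, was the other chaperone-group gene to rise. It had 16.4 and 12.9 CPM against 22.8 and 21.7 CPM, an increase of 51.8% (log2 fold change 0.60, SE 0.131, adjusted p = 0.00363, edgeR). *MANF*, an ER-resident BiP cofactor that is secreted under stress, had 57.5 and 55.5 CPM against 77.6 and 63.1 CPM, higher in both libraries without passing (adjusted p = 0.0546, edgeR). *SDF2L1* and *DNAJB11*, partners of each other and of BiP, overlapped between groups, with log2 fold changes of 0.19 and 0.06. The protein disulfide isomerases *PDIA3*, *PDIA4* and *PDIA6*, which form and reshuffle disulfide bonds, had log2 fold changes of −0.14, −0.21 and −0.07, and none of the 3 passed. Before division by length *PDIA3* had the highest mean in miControl (566 CPM), then *PDIA4* (239) and *PDIA6* (134). Per kilobase of all annotated exons the order was *PDIA4* (72.6 CPM per kb), *PDIA3* (48.1) and *PDIA6* (32.7). That length was 11.8 kb for *PDIA3* and 3.30 kb for *PDIA4*, so the order per kilobase depends on the annotation and does not rank the transcripts.

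Among the ER-associated degradation genes, which export misfolded proteins for destruction, 2 of 4 fell, beside 10.9% of all genes tested. *EDEM1*, a mannosidase-like lectin that picks out misfolded glycoproteins, had 103 and 107 CPM in miControl and 64.7 and 67.6 CPM in miR-6133-5p. It fell to 0.630 of the control level (log2 fold change −0.67, SE 0.1004, adjusted p = 0.000251, edgeR). *HERPUD1*, a membrane protein of the export complex, had 60.6 and 63.8 CPM against 43.7 and 40.0 CPM. It fell by 32.8% (log2 fold change −0.57, SE 0.104, adjusted p = 0.00100, edgeR). The ubiquitin ligase *SYVN1* (HRD1) and its partner *SEL1L* did not pass, at 0.16 and −0.15 on the log2 scale.

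Of the 18 ER arm genes 6 fell and 2 rose (33.3% and 11.1%, beside 10.9% and 7.96% of all genes tested). Together they had a median log2 fold change of −0.14, and 0.023 under library totals. Relative to the median of all genes the value was −0.17 under both scalings. Their summed level was 5144 and 5206 CPM in miControl against 5062 and 4814 CPM in miR-6133-5p, most of it from *HSPA5*, *HSP90B1*, *CALR*, *CANX* and *PDIA3*. These sums are on the TMM scale, and their order between groups depends on that scaling. The 7 members with an ERSE match included 2 that rose (*CANX*, *CRELD2*), 2 that fell (*XBP1*, *CALR*) and 3 that did not pass, from −1.10 to 0.69 on the log2 scale. Of the 3 with ERSE-II, *HYOU1* and *HERPUD1* fell and *SDF2L1* did not pass. The map of each library against the control mean shows these opposite movements side by side.

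**Figure D3:**
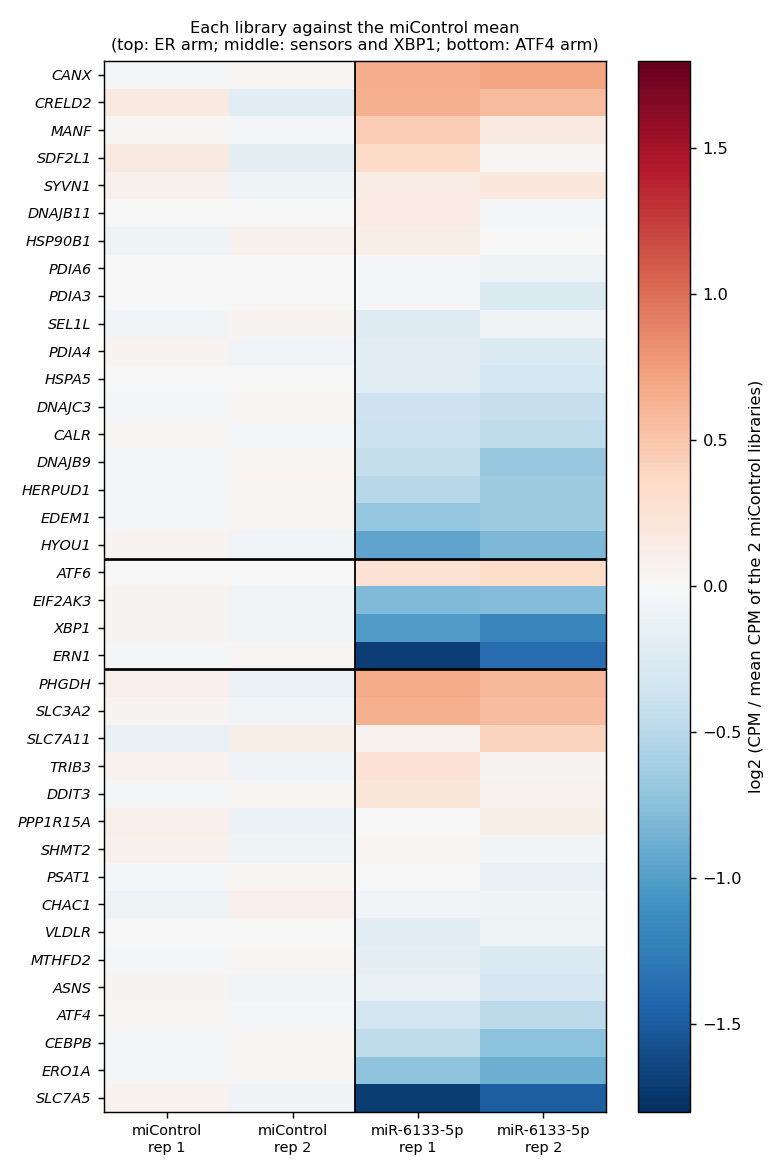
Each library's CPM divided by the mean of the 2 miControl libraries, as log2, for the 38 members (rows; black lines separate the ER arm, the sensors with *XBP1*, and the ATF4 arm) and the 4 libraries (columns). Blue rows such as *ERN1*, *XBP1*, *HYOU1* and *SLC7A5* are low in both miR-6133-5p libraries, red rows such as *CANX*, *PHGDH* and *SLC3A2* are high in both; the miControl columns are centred on 0 because their own mean is the reference.

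*ATF4* itself (ENSG00000128272, chr22:39915700-39918688, plus strand), the transcription factor at the head of its arm, had 431 and 417 CPM in miControl and 334 and 305 CPM in miR-6133-5p. The groups did not overlap, and the mRNA fell by 24.7% (log2 fold change −0.41, SE 0.103, adjusted p = 0.00913, edgeR). Under library totals the log2 fold change was −0.25. ATF4 is controlled largely at translation, which mRNA counts do not show. *DDIT3*, encoding CHOP, the factor tied to cell death under lasting ER stress, had 9.84 and 10.1 CPM against 11.7 and 10.4 CPM (log2 fold change 0.14, SE 0.129, adjusted p = 0.455, edgeR). Its libraries were within a narrow range, with both miR-6133-5p libraries slightly above the controls, and no difference was detectable by the test. In the annotation used here 31.6% of its exon bases also lie in exons on the opposite strand. *CEBPB*, a bZIP partner of ATF4 and CHOP, had 16.4 and 17.0 CPM against 12.1 and 9.96 CPM and fell by 34.0% (log2 fold change −0.60, SE 0.131, adjusted p = 0.00353, edgeR).

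The feedback and effector genes did not pass. *PPP1R15A* (GADD34), which brings the phosphatase back to eIF2α, had a log2 fold change of 0.05, the pseudokinase *TRIB3* 0.16, and *CHAC1*, which degrades glutathione, −0.07. All 3 overlapped between groups. *ERO1A*, the oxidase that passes oxidizing power to disulfide isomerases and a known target of hypoxia and of CHOP, had 214 and 222 CPM in miControl and 132 and 119 CPM in miR-6133-5p. It fell by 42.5% (log2 fold change −0.80, SE 0.105, adjusted p = 8.44e-05, edgeR) and lay just inside the limit of 0.8. It passed in each fit that left out 1 library, with a highest adjusted p of 0.00621 in edgeR.

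Amino acid transport held the largest fall of all 38 members together with a rise of its partner. *SLC7A5* (LAT1, ENSG00000103257, chr16:87863629-87903113, minus strand), the light chain that carries large neutral amino acids, had 16.9 and 15.5 CPM in miControl and 4.96 and 5.76 CPM in miR-6133-5p. Both miR-6133-5p libraries were far below the controls. It fell by 66.8% (log2 fold change −1.59, SE 0.136, adjusted p = 2.08e-06, edgeR), and passed in each fit that left out 1 library (highest adjusted p = 0.000661).

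*SLC3A2* (CD98 heavy chain, ENSG00000168003, chr11:62623476-62656352, plus strand), which pairs with *SLC7A5* and *SLC7A11* products, had 225 and 211 CPM in miControl and 341 and 321 CPM in miR-6133-5p. It rose by 51.9% (log2 fold change 0.60, SE 0.103, adjusted p = 0.000666, edgeR). *SLC7A11* (xCT), the cystine carrier and other light chain, had 52.6 and 61.2 CPM against 59.6 and 74.9 CPM, overlapping between groups (log2 fold change 0.24, adjusted p = 0.173, edgeR). The heavy chain over *SLC7A5*, per kilobase, was 9.94 and 10.2 within the miControl libraries and 51.3 and 41.6 within the miR-6133-5p libraries, 4.62-fold higher.

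Of the 5 amino acid and one-carbon enzymes, *PHGDH*, the entry step of serine synthesis, was the only member to pass. It had 84.0 and 73.0 CPM in miControl and 125 and 118 CPM in miR-6133-5p, a rise of 55.0% (log2 fold change 0.63, SE 0.109, adjusted p = 0.000680, edgeR). *PSAT1*, the next enzyme of the same route, overlapped between groups at −0.06 on the log2 scale, as did *SHMT2*, which makes glycine in mitochondria, at −0.01. *MTHFD2* of mitochondrial folate metabolism and asparagine synthetase *ASNS* were each at −0.21 without passing, and 49.3% of the exon bases of *ASNS* are shared with another gene on the same strand. *VLDLR*, a lipoprotein receptor, was the member with the lowest level per kilobase (0.392 CPM per kb in miControl) and did not pass.

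The ATF4 arm had a median log2 fold change of −0.07, and 0.10 under library totals. Relative to all genes the value was −0.09 under both scalings. Its summed level was 1714 and 1661 CPM in miControl and 1658 and 1571 CPM in miR-6133-5p, so that both miR-6133-5p libraries lay below the controls, the nearest by a small margin. Of its 3 genes with a CARE match, *SLC3A2* rose and *ASNS* and *CHAC1* did not pass.

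Genes outside the 38 were read from lists by function. Without the first or the second miControl library, 3 genes of the ER folding list, 3 of the translocon list and 4 of the other ATF4 targets passed, in place of 6, 6 and 8. Among 26 other ER folding and degradation genes 4 fell and 2 rose (15.4% and 7.69%, near the 10.9% and 7.96% of all genes), with a median log2 fold change of −0.08. *UGGT1*, the sensor that returns misfolded glycoproteins to the calnexin cycle, had 263 and 268 CPM against 89.0 and 123 CPM (log2 fold change −1.32, SE 0.138, adjusted p = 1.15e-05, edgeR). *EDEM3*, a relative of *EDEM1*, went the other way, from 21.3 and 26.6 CPM to 48.1 and 54.9 CPM (log2 fold change 1.11, SE 0.127, adjusted p = 2.56e-05, edgeR). The prolyl isomerase *FKBP14* and the ubiquitin-conjugating *UBE2J1* fell, by 0.69 and 0.66 on the log2 scale. Of 23 translocon and signal peptidase genes, which bring proteins into the ER, 5 fell and 1 rose (21.7% and 4.35%), with a median of −0.11. The signal recognition particle receptor is an example of opposite movement, with its α subunit *SRPRA* at −0.94 and its β subunit *SRPRB* at 0.55, both past the test. *SRPRB* was the 1 gene of this list that rose, and 3 of the 23 were called lower (13.0%, beside 5.54% of all genes). The summed level of the list was 4901 and 4991 CPM in miControl and 4167 and 3842 CPM in miR-6133-5p.

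A list of other ER stress genes, transcription factors with the proteases that cut them and effectors of IRE1α and cell death, held the largest fall of the 8 lists. Of 15 tested in that list 2 fell and 2 rose (13.3% each), with a median of 0.05. *CREB3L1* (OASIS), a membrane-bound factor of secretory cells, had 158 and 141 CPM in miControl and 31.6 and 29.7 CPM in miR-6133-5p (log2 fold change −2.29, SE 0.111, adjusted p = 2.79e-08, edgeR). *CREB3L2* (BBF2H7), its relative, had 509 and 505 CPM against 124 and 144 CPM (log2 fold change −1.92, SE 0.112, adjusted p = 1.13e-07, edgeR). Both were lower in both libraries by several times the spread within groups. *TRAF2*, an adaptor of IRE1α, and the proapoptotic *BCL2L11* rose, by log2 fold changes of 0.59 and 0.86.

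Of 28 other ATF4 targets tested 6 fell and 2 rose (21.4% and 7.14%), with a median of −0.12. *EIF4EBP1*, a brake on cap-dependent translation, had 64.6 and 55.8 CPM against 15.9 and 12.8 CPM (log2 fold change −2.07, SE 0.131, adjusted p = 2.03e-07, edgeR). *PYCR1* of proline synthesis and *ALDH1L2* of mitochondrial folate metabolism also fell, by 0.90 and 1.00 on the log2 scale, and *CEBPG*, a partner of ATF4, rose by 0.55. The other gene of the list that rose had a log2 fold change of 1.11, the highest in the list. The 20 aminoacyl-tRNA synthetases, many of them ATF4 targets, had a median of 0.03, with *WARS1* lower (−0.71) and *FARSA* higher (0.59), 1 of 20 in each direction. Among 15 genes of eIF2, its kinases, phosphatases and exchange factor eIF2B, with *GCN1* and *IMPACT*, 3 fell and 1 rose (20.0% and 6.67%). The riser was the eIF2B subunit gene *EIF2B3* (0.52). Those that fell were the eIF2α kinase genes *EIF2AK1* (−0.92) and *EIF2AK4* (−0.42) and the eIF2 subunit gene *EIF2S3* (−0.67), while the remaining eIF2α kinase outside the members, *EIF2AK2* (PKR), was at 0.13 and did not pass (adjusted p = 0.412, edgeR). The strip plot of members and lists sets these beside the median of all genes.

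**Figure D4:**
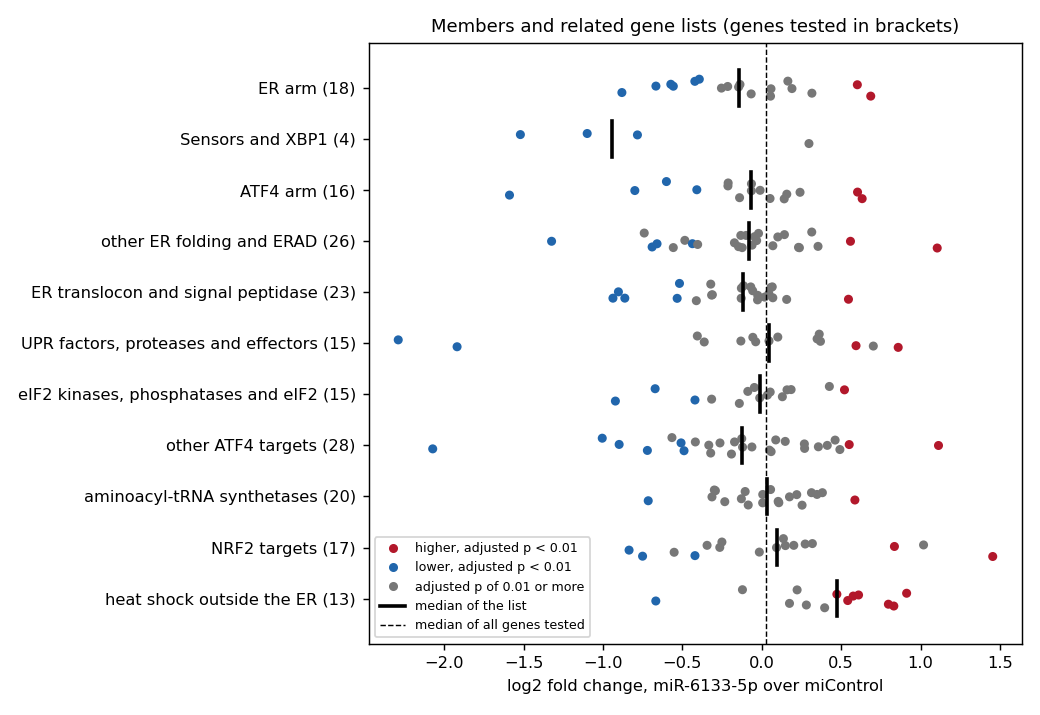
Log2 fold change of each gene (points), miR-6133-5p over miControl, for the 3 member groups and 8 lists of related genes, with the number tested in brackets, the list median as a thick bar and the median of all genes tested (0.03) as a dashed line. The list medians furthest from the dashed line are those of the sensors with *XBP1* (−0.94) and the heat shock genes outside the ER (0.47).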

How the data were processed

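Total RNA of LX-2 cells was sequenced as polyA-selected, stranded libraries with paired reads, 2 libraries per group. The authors aligned reads to GRCh37 with STAR 2.5.3a through GeneData Profiler, and their processing notes also name featureCounts in Subread 1.6.4. The deposited values are whole-number counts per Ensembl gene with no normalization; annotation release, strand setting and filters are not given in the sources used here. Of gene counts from 1 to 10, 60.2% were even, and whether a count stands for a read or a read pair is not given in the sources used here, which bears on single low counts; 0 values differed between the table and the single-library files. The mapping summaries were not used.

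Counts were filtered with filterByExpr, scaled by TMM and tested with glmQLFit and glmQLFTest in edgeR 4.0.16 (R 4.3.3), 2-sided, with Benjamini–Hochberg adjustment over 18252 genes and the study's limits of 0.01 and 0.8 on the log2 scale. Standard errors were derived from the F statistic. The procedure was tested on simulated data. Depth ran from 51862006 to 93811213 counts. Counts carry amplification and biological variation, so no counting interval was used. Positions and exon lengths came from the lift of GENCODE v44 to GRCh37, and reads may have been counted on another release. The exon length of a gene joined the exons of all its annotated transcripts, so levels per kilobase depend on the annotation. Promoter windows came from RefSeq on GRCh38.p14.

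Members and lists were chosen with earlier results of these data known. Every member is accounted for. Values per library are given for called members, the sensors, *XBP1*, *ATF4*, *DDIT3*, *HSPA5* and the 5 largest passing changes in each direction of an arm, and for some others chosen after their values were seen; from each list at most 3 genes per direction are named. Alternatives were RLE scaling, library totals, DESeq2 1.42.0, no filter, at least 10 counts in every library, a replicate block, leaving out each library, an adjusted p-value under 0.05, glmTreat, and *ERO1A* counted in the ER arm. RT-qPCR and protein data were not analysed here. A listed gene is not reported by name here.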

Additional observations from a re-analysis of the deposited data

How the results depend on the processing

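With library totals in place of TMM the ER arm median turned from −0.14 to 0.023 and the ATF4 arm median from −0.07 to 0.10. The sensor median moved to −0.78. The lower counts went from 6 to 3 in the ER arm and from 4 to 2 in the ATF4 arm, with *CALR*, *DNAJB9*, *DNAJC3*, *ATF4* and *CEBPB* lost. Over all 18252 genes the lower count went from 1984 to 1415 and the higher count from 1452 to 2826, so this loss was not particular to the members. That scaling gained *MANF* and *ATF6*, which made 1 sensor higher, as did an adjusted p-value under 0.05, 1 member was called higher in place of 0, and 3 lower in place of 4, with *HYOU1* (−0.72) no longer called. It also turned *PDIA3* to 0.027, *PDIA6* to 0.10, *SEL1L* to 0.018, *CHAC1* to 0.10, *PSAT1* to 0.10, *SHMT2* to 0.15 and *VLDLR* to 0.024, none past the threshold. Testing against a log2 fold change of 0.8 with glmTreat left 2 members called lower in place of 4. The same 17 members passed under RLE, DESeq2, no filter and at least 10 counts. Counting *ERO1A* in the ER arm moved its fall from the ATF4 arm to the ER arm and changed no rise.

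Leaving out each library gave 0 to 3 ER arm genes higher and 1 to 8 lower, 3 sensor-set genes lower in every fit, 0 to 3 ATF4 arm genes higher and 2 to 4 lower, and 5 to 6 members called lower. The medians ran from −0.19 to −0.13 in the ER arm, from −1.01 to −0.91 in the sensor set and from −0.12 to −0.045 in the ATF4 arm. *HSP90B1* ran from −0.031 to 0.11, *DNAJB11* from −0.047 to 0.13, *PPP1R15A* from −0.069 to 0.14 and *SHMT2* from −0.11 to 0.056, changing sign without passing. Over all genes too, fewer passed without a miControl library and more without a miR-6133-5p library, here and in the lists below.

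Genes passing in either direction, 6 of the other ER folding list, rose to 11 at an adjusted p-value under 0.05 and ran from 3 to 10 without 1 library. The ranges without 1 library were 3 to 9 for the translocon list (6 with all), 4 to 10 for other ATF4 targets (8), 0 to 6 for aminoacyl-tRNA synthetases (2), 1 to 7 for the eIF2 list (4), 3 to 8 for the list of ER stress factors and effectors (4), 2 to 8 for NRF2 targets (5) and 2 to 9 for heat shock genes outside the ER (8). The synthetases gave 7 with library totals, 4 with DESeq2, 4 with no filter and 8 at 0.05, and the ER stress factors and effectors 8, 8, 7 and 10.

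With the replicate block, 17 members passed, the same as without it, and the list of ER stress factors and effectors gave 9 in place of 4. The numbers are not said to mark a shared culture or day, and deviations of same-numbered libraries correlated at 0.049 across genes. The cause of these changes was not tested. The 2 libraries per group limit every p-value.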

Other observations

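Heat shock genes outside the ER, cytosolic apart from the mitochondrial chaperonin genes *HSPD1* and *HSPE1*, held more rises than falls with miR-6133-5p. Of 13 tested 7 rose, *HSPD1* among them, and 1 fell (53.8% and 7.69%, beside 7.96% higher and 10.9% lower of all genes), with a median log2 fold change of 0.47, and 0.64 under library totals, beside 0.03 and 0.19 for all genes. *HSP90AA1*, the inducible cytosolic Hsp90, had 705 and 891 CPM in miControl and 1416 and 1358 CPM in miR-6133-5p (log2 fold change 0.80, SE 0.120, adjusted p = 0.000243, edgeR). *HSP90AB1*, its constitutive relative, had 1667 and 1635 CPM against 1055 and 1025 CPM (log2 fold change −0.67, SE 0.0985, adjusted p = 0.000213, edgeR). The near-identical copies *HSPA1A* and *HSPA1B*, between which reads may be split uncertainly, had log2 fold changes of 0.91 and 0.83 and both passed. Without the first or the second miControl library 2 or 3 genes of this list passed in place of 8.

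Among 17 NRF2 targets tested, genes of the response to oxidants that PERK signalling can also reach, 3 fell and 2 rose (17.6% and 11.8%, beside 10.9% and 7.96% of all genes), with a median of 0.09. *TXNRD1*, thioredoxin reductase, had 94.97 and 91.0 CPM in miControl and 255 and 255 CPM in miR-6133-5p (log2 fold change 1.45, SE 0.103, adjusted p = 4.51e-07, edgeR). *AKR1C1*, an aldo-keto reductase, had 12.0 and 11.2 CPM against 22.6 and 18.8 CPM (log2 fold change 0.84, SE 0.129, adjusted p = 0.000305, edgeR). *FTL* and *GCLM*, of iron storage and glutathione synthesis, fell, by 0.75 and 0.42 on the log2 scale.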
